A study of Mus musculus with 5 samples.

Results

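The 10 genes described here are feedback targets of β-catenin: Axin2, Lef1, Tcf7, Nkd1, Notum, Rnf43, Znrf3, Lgr5, Sp5 and Apcdd1. They were taken by symbol, as well-known direct targets of β-catenin and its TCF partners, with no threshold on their values, though earlier results of these data were known when the list was made. All 10 are among the 24527 genes of the count table, and all 10 are among the 14612 genes that passed the filter on low counts and were tested. Prostate tumors of 3 castrated and 2 intact TripleTg mice were profiled by bulk RNA-seq. Every mouse of both groups carried the same alleles, hHGFtg, H11 hMET/+, Ctnnb1 L(Ex3)/+ and PB Cre4. The human HGF transgene is expressed throughout the body. The human MET transgene and the loss of exon 3 of Ctnnb1, which leaves a stabilized β-catenin, both depend on a Cre recombinase under the probasin promoter and so arise in prostate epithelium. The castrated mice lost their testes at 4 months of age, and all mice were analyzed at 8 months. The samples are separate animals, and the groups therefore differ in androgen supply and not in genotype. The 3 castrated libraries held 28015507, 18951782 and 20492061 counts in total, and the 2 intact libraries 21560355 and 22853501.

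In the canonical Wnt pathway, a complex of Axin, APC and kinases marks β-catenin for destruction, through phosphorylation of residues that exon 3 of Ctnnb1 encodes. β-catenin that escapes enters the nucleus, binds TCF and LEF factors on DNA and turns on target genes. Many of the most general targets act back on the pathway, and they do so at each of its levels: on the secreted ligand, at the receptor, in the destruction complex and in the nucleus. Such genes are widely used as a readout of β-catenin activity, and a form of β-catenin without exon 3 acts below the receptors and the destruction complex.

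The promoters of these genes give a view of the DNA letters that TCF and LEF factors bind. The RefSeq promoter table (GRCm38.p6, the same build as mm10) held 11 windows for 6 of the 10 genes, each window covering 250 bases before and 50 bases after a transcription start. The core of the TCF and LEF site was searched as CTTTGAA or CTTTGAT or CTTTGTA or CTTTGTT on both strands. Of all 32851 windows in the table, 16.9% held at least 1 match, and 2 of the 11 windows of the feedback targets did. The Sp5 window (chr2:70474673-70474972, plus strand) held 2 matches, CTTTGTT on the opposite strand 222 bases before the start and CTTTGAT on the gene's own strand 104 bases before it. A Lef1 window at a start inside the gene (chr3:131156044-131156343, plus strand) held CTTTGTA on the opposite strand, 147 bases before that start. The Axin2 window (chr11:108920099-108920398, plus strand) held none of the 4, which says only that these letters are not in this window. The 3 windows are printed 5′ to 3′, because Sp5 and Lef1 hold the only matches found and Axin2 is the most general target of the pathway, with the matches in capitals.
Sp5: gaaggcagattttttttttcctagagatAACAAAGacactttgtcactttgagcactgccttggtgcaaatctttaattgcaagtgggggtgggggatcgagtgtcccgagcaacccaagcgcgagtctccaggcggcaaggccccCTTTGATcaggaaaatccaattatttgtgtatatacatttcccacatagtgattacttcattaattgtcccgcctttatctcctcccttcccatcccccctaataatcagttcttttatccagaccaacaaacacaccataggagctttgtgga
Lef1, internal start: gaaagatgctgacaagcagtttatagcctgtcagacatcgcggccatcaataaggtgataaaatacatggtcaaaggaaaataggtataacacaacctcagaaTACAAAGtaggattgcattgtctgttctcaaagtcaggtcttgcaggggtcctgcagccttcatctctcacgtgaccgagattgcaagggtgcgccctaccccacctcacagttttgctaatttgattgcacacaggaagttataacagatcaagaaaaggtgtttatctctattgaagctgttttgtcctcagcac
Axin2: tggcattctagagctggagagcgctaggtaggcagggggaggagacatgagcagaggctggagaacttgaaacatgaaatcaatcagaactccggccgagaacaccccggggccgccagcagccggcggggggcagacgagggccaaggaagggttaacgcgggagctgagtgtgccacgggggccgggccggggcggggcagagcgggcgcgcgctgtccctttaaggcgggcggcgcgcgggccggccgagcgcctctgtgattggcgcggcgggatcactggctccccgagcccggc

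Compared per length, the feedback targets spanned a wide range of levels in these tumors. TPM (counts divided by gene length and scaled to the same total in every sample) averaged 541 over the 5 mice for Apcdd1, 306 for Nkd1, 158 for Notum and 157 for Axin2. The mean TPM of each of these 4 genes was above that of at least 93.2% of all tested genes. The mean TPM level was 90.6 for Rnf43, 55.0 for Tcf7, 45.4 for Znrf3, 33.5 for Lgr5, 30.9 for Lef1 and 24.0 for Sp5, and even the Sp5 level was above that of 53.4% of the tested genes. Of the neighbours in this order, Apcdd1 was above Nkd1, Nkd1 above Notum and Axin2 above Rnf43 in every mouse, and every other pair changed places in at least 1 mouse. Notum and Axin2, for instance, changed places between samples, with a Notum level of 325 TPM and an Axin2 level of 194 TPM in intact replicate 1, and 128 TPM and 256 TPM in intact replicate 2.

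**Figure D1:**
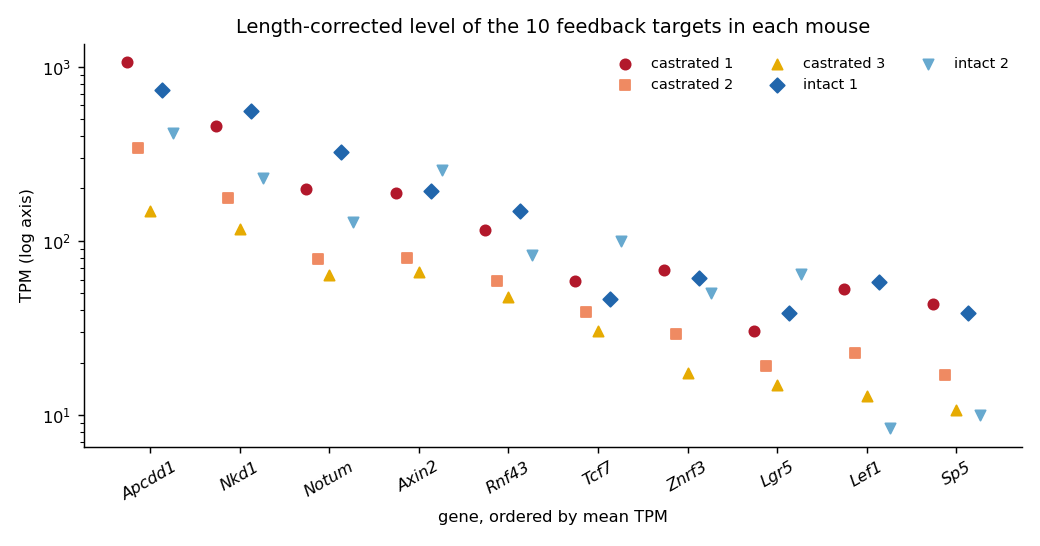
TPM (log axis) of the 10 feedback targets in each of the 5 mice, with genes ordered by mean TPM and 1 point per mouse. Apcdd1 lies highest in every mouse, from 149 to 1060 TPM, and castrated replicates 2 and 3 lie below castrated replicate 1 for every gene.

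The comparison of castrated with intact mice asks whether these targets differ in tumors that grew without testicular androgen. All 10 feedback targets had a lower fitted level in castrated mice under TMM scaling (8 of 10 when libraries were scaled to epithelial genes, where Lef1 and Sp5 were higher). The mice of each group differed widely from each other, and no gene passed the test. Log2 fold changes (castrated minus intact) ran from -1.46 for Lgr5 to -0.06 for Sp5, with a median of -0.72 over the 10 genes beside -0.03 over all tested genes. A negative log2 fold change was found for 52.1% and a positive one for 47.9% of the tested genes. Of the 14612 genes tested, 0 (0%) were called at a Benjamini-Hochberg adjusted p under 0.05 with more than 1 log2 unit of difference in the edgeR quasi-likelihood test, where the lowest adjusted p reached was 0.289. With the same thresholds DESeq2 called 989 genes and edgeR's likelihood ratio test 369, and neither called a feedback target. At an unadjusted p under 0.05 edgeR's quasi-likelihood test gave 15% of tested genes, 8.74% higher and 6.28% lower in castrated mice, and 10.9% when a difference above 1 log2 unit was also required. Lgr5 alone of the 10 genes was among the last. It was also the only one whose groups did not overlap, with every castrated mouse below both intact mice. That order was seen for 16.1% of tested genes, the opposite order for 17%, and either for 33.1%, so that 1 of 10 is no more than the background. Relative to epithelial genes (below), the groups overlapped for Lgr5 too, so its separation depended on the scale.

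**Figure D2:**
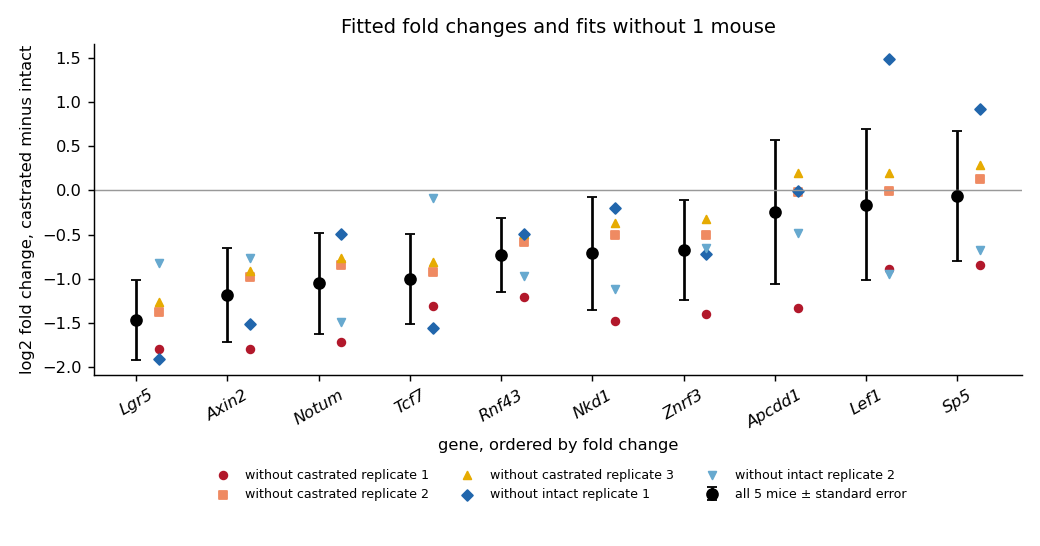
Fitted log2 fold change (castrated minus intact) of each feedback target with its standard error, in black, beside the values fitted without 1 mouse at a time, in color. All 10 black points lie below 0 under TMM scaling (8 under epithelial scaling, without Lef1 and Sp5), and without castrated replicate 1 every gene lies lower, while Lef1, Sp5 and Apcdd1 cross 0 when certain other mice are left out.

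The levels in single mice show where the spread arose. In all 10 genes castrated replicate 1 was the highest and castrated replicate 3 the lowest of the castrated mice, an order held by 19.4% of tested genes. In 8 of the 10, castrated replicate 1 was more than 2 times the mean of the other two, which 6.69% of tested genes reached. The ratio ran from 1.70 for Tcf7 to 4.32 for Apcdd1, and its median over all tested genes was 0.99. Castrated replicates 2 and 3 were both below both intact mice in 8 of the 10 genes, against 24.5% of tested genes. Castrated replicate 1, in contrast, lay between the 2 intact mice in 6 genes, above both in 3 and below both in 1. These orders were looked for after the values had been seen, and the 10 genes are targets of a common pathway measured in the same 5 libraries, so they do not count as 10 separate observations.

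**Figure D3:**
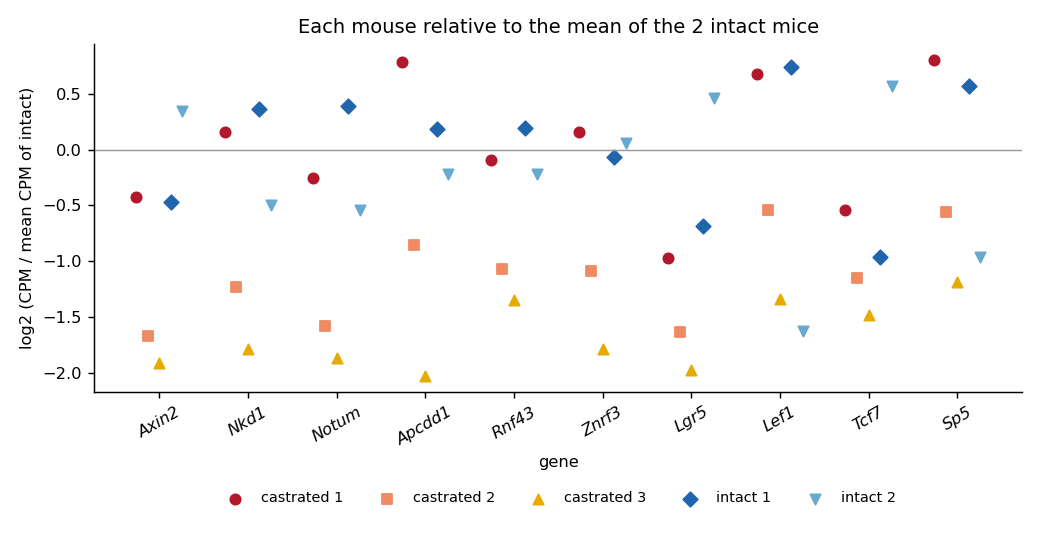
Log2 of the CPM of each mouse relative to the mean CPM of the 2 intact mice, for the 10 feedback targets, with 1 point per mouse and a line at the intact mean. Castrated replicates 2 and 3 lie below the line for every gene, and castrated replicate 1 lies above at least 1 intact mouse for all genes but Lgr5.

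In the nucleus, Lef1 and Tcf7 encode DNA-binding partners of β-catenin. CPM is the count scaled to library size and corrected by TMM (trimmed mean of M-values), a measure for comparing a gene between mice. Lef1 (chromosome 3, 131110297 to 131224357, mm10 as for all genes below) had CPM levels of 82.4, 35.5 and 20.4 in castrated replicates 1, 2 and 3, compared with 86.2 and 16.7 in intact replicates 1 and 2. The intact mice differed 5.17 times, more than for any other of the 10 genes, and the castrated mice lay between them. Castrated mice averaged 46.1 ± 32.3 CPM (SD, n = 3) and intact mice 51.5 ± 49.2 CPM (SD, n = 2). Its log2 fold change was -0.16 ± 0.85 (SE), at a Benjamini-Hochberg adjusted p of 0.946 (edgeR quasi-likelihood).

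Tcf7 (chromosome 11, 52252283 to 52283014) showed the opposite order of the intact mice. Its CPM levels were 68.4, 44.9 and 35.6 in castrated replicates 1, 2 and 3, compared with 51.0 and 148 in intact replicates 1 and 2. Castrated replicate 1 was above intact replicate 1, so the groups overlapped, and intact replicate 2 stood above all other mice. The log2 fold change of Tcf7 was -1.002 ± 0.51 (SE), at a Benjamini-Hochberg adjusted p of 0.407 (edgeR quasi-likelihood). In the fit without intact replicate 2 it was -0.08.

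Sp5, a zinc finger transcription factor that restrains Wnt target genes, had the lowest mean TPM of the 10 and the promoter window with 2 matches shown above. Its CPM levels (chromosome 2, 70474923 to 70477726) were 38.6, 15.02 and 9.70 in castrated replicates 1, 2 and 3, compared with 32.9 and 11.3 in intact replicates 1 and 2. Castrated replicate 1 was the highest of all mice and castrated replicate 3 the lowest. The means were close, at 21.1 ± 15.4 CPM (SD, n = 3) for castrated and 22.1 ± 15.2 CPM (SD, n = 2) for intact mice, with a log2 fold change of -0.06 ± 0.73 (SE), at a Benjamini-Hochberg adjusted p of 0.977 (edgeR quasi-likelihood). Sp5 and Lef1 had the same arrangement of mice, with castrated replicate 1 and intact replicate 1 high and the other three low.

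In the cytoplasm, Axin2 encodes a scaffold of the destruction complex, and Nkd1 an antagonist that binds Dishevelled. Axin2 (chromosome 11, 108920349 to 108950781) had CPM levels of 342, 144 and 122 in castrated replicates 1, 2 and 3, compared with 333 and 587 in intact replicates 1 and 2. Castrated replicate 1 was level with intact replicate 1, and castrated replicates 2 and 3 were well below every other mouse. Castrated mice averaged 203 ± 121 CPM (SD, n = 3) and intact mice 460 ± 179 CPM (SD, n = 2), which is 2.27 times as high. The difference did not pass the test over all genes, at an unadjusted p of 0.0736 from edgeR's quasi-likelihood test.

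Nkd1 (chromosome 8, 88521344 to 88594887) had CPM levels of 864, 330 and 224 in castrated replicates 1, 2 and 3, compared with 997 and 550 in intact replicates 1 and 2. Castrated replicate 1 again lay between the intact mice. Nkd1 had a log2 fold change of -0.71 ± 0.64 (SE), at a Benjamini-Hochberg adjusted p of 0.635 (edgeR quasi-likelihood). With 1 mouse left out, the value ranged from -1.48 (without castrated replicate 1) to -0.20 (without intact replicate 1).

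At the cell surface, Rnf43 and Znrf3 encode ubiquitin ligases that remove Frizzled receptors, and Lgr5 encodes a receptor for R-spondins, the secreted proteins that neutralize these ligases. Rnf43 (chromosome 11, 87663087 to 87735539) had CPM levels of 222, 113 and 93.2 in castrated replicates 1, 2 and 3, compared with 271 and 204 in intact replicates 1 and 2. Of the 10 genes it varied least, with 2.91 times between the highest and the lowest mouse. Its log2 fold change was -0.73 ± 0.42 (SE), at a Benjamini-Hochberg adjusted p of 0.4502 (edgeR quasi-likelihood). The value was -1.20 without castrated replicate 1 and -0.49 without intact replicate 1. Rnf43 overlaps 1110028F11Rik on the same strand, whose mean CPM was 4.44.

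Znrf3 (chromosome 11, 5276329 to 5444847) had CPM levels of 223, 94.0 and 57.7 in castrated replicates 1, 2 and 3, compared with 191 and 208 in intact replicates 1 and 2. Here the intact mice were close to each other, at 199.5 ± 11.9 CPM (SD, n = 2), and the spread lay within the castrated group, at 125 ± 86.9 CPM (SD, n = 3). Castrated replicate 1 was above both intact mice and the other two castrated mice below both. The log2 fold change was -0.67 ± 0.57 (SE), at a Benjamini-Hochberg adjusted p of 0.607 (edgeR quasi-likelihood). It was -1.395 without castrated replicate 1 and -0.33 without castrated replicate 3.

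Lgr5 (chromosome 10, 115450314 to 115587780) had CPM levels of 60.5, 38.2 and 30.1 in castrated replicates 1, 2 and 3, compared with 73.5 and 163 in intact replicates 1 and 2. By CPM all castrated mice were below both intact mice, with castrated replicate 1 not far below intact replicate 1. Relative to epithelial genes castrated replicate 1 was above intact replicate 1. Castrated mice averaged 42.9 ± 15.7 CPM (SD, n = 3) and intact mice 118 ± 63.4 CPM (SD, n = 2), which is 2.76 times as high. The log2 fold change was -1.46 ± 0.45 (SE), at a Benjamini-Hochberg adjusted p of 0.297 (edgeR quasi-likelihood), and over the alternative fits the adjusted p ran from 0.0609 with DESeq2 to 0.747 with edgeR and a replicate block. Lgr5 overlaps the antisense gene A930009A15Rik, whose mean CPM was 0.303. The sources do not state whether counting used strand, so reads of overlapping genes cannot be told apart.

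Outside the cell and at its membrane, Notum encodes an enzyme that inactivates Wnt proteins by removing their lipid, and Apcdd1 a membrane glycoprotein that inhibits Wnt signaling. Notum (chromosome 11, 120653789 to 120660837) had CPM levels of 169, 67.2 and 55.1 in castrated replicates 1, 2 and 3, compared with 264 and 138 in intact replicates 1 and 2. Castrated replicate 1 lay between the intact mice, and the other two castrated mice were below both. For Notum the log2 fold change was -1.05 ± 0.57 (SE), at a Benjamini-Hochberg adjusted p of 0.430 (edgeR quasi-likelihood). It was -1.72 without castrated replicate 1 and -0.49 without intact replicate 1.

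Apcdd1 (chromosome 18, 62922327 to 62953814) had the widest range of the 10 genes, 7.05 times between the highest and the lowest mouse. Its CPM levels were 1541, 494 and 219 in castrated replicates 1, 2 and 3, compared with 1015 and 768 in intact replicates 1 and 2. Both extremes were castrated mice, and the intact mice lay between them. Its log2 fold change was -0.25 ± 0.81 (SE), at a Benjamini-Hochberg adjusted p of 0.909 (edgeR quasi-likelihood). The value was -1.32 without castrated replicate 1 and 0.20 without castrated replicate 3.

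The 2 intact mice split the feedback targets. Axin2, Tcf7, Lgr5 and Znrf3 had a higher CPM in intact replicate 2, with ratios to intact replicate 1 of 1.76, 2.90, 2.22 and 1.09. Lef1, Sp5, Notum, Nkd1, Rnf43 and Apcdd1 had a higher CPM in intact replicate 1, with ratios from 1.32 for Apcdd1 to 5.17 for Lef1. For Znrf3 this order depended on the scale, since its TPM level was 61.7 in intact replicate 1 and 50.4 in intact replicate 2. With 3 mice against 2, an exact two-sided permutation test of a single gene that doubles the smaller tail cannot go below p = 0.2.

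The other genes of the pathway were grouped by the step at which they act. At the cell surface and in Wnt secretion, 11 of 13 genes were tested, 6 with a positive and 5 with a negative log2 fold change, with a median of 0.73, and 0 passed the test by adjusted p. The R-spondin genes Rspo1 and Rspo3 encode ligands of Lgr5 and were higher in every castrated mouse than in both intact mice, the 2 of 11 tested genes of this group with that order, beside 17% of all tested genes, and another 2 had the opposite order. Rspo3 had CPM levels of 8.48, 17.5 and 41.0 in castrated replicates 1, 2 and 3, compared with 1.30 and 2.37 in intact replicates 1 and 2, with a log2 fold change of 3.60 ± 0.83 (SE), at a Benjamini-Hochberg adjusted p of 0.289 (edgeR quasi-likelihood). Among the castrated mice Rspo3 was lowest in replicate 1 and highest in replicate 3, where the feedback targets were highest and lowest. Rspo1, at 6.87, 6.38 and 7.80 CPM in castrated replicates 1, 2 and 3, did not have this order. The fibroblast gene Dcn, at 998, 2662 and 3825 CPM, did. Any link between Rspo3 and the feedback targets was not tested. Rspo1 had a log2 fold change of 1.25 and Gpc6, a glypican, one of 1.45. Lgr6, a relative of Lgr5, had a log2 fold change of -3.10, with CPM levels of 7.22, 2.04 and 1.90 in castrated replicates 1, 2 and 3, compared with 7.93 and 56.2 in intact replicates 1 and 2. Like Lgr5 it was highest in intact replicate 2. Wls, the carrier of Wnt proteins to the cell surface, had the highest mean TPM level of this group, 103, and a log2 fold change of -0.43.

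Of β-catenin itself and its destruction complex, 14 of 14 genes were tested, 4 with a positive and 10 with a negative log2 fold change, with a median of -0.24, and 0 passed the test by adjusted p. Ctnnb1 had CPM levels of 2902, 1334 and 1189 in castrated replicates 1, 2 and 3, compared with 1812 and 765 in intact replicates 1 and 2. It shared with the feedback targets the high level in castrated replicate 1, at 2.30 times the mean of the other castrated mice. This ratio was above 2 in 1 of the 14 genes, beside 6.69% of tested genes. Castrated replicate 1 was the highest and replicate 3 the lowest castrated mouse in 7 of the 14, beside 19.4% of tested genes. Castrated replicates 2 and 3 were both below both intact mice in 7 of the 14, beside 24.5%. In castrated replicates 2 and 3 Ctnnb1 was above intact replicate 2, as was Lef1, whereas 8 of the 10 feedback targets were below it in both. Its log2 fold change was 0.49 ± 0.63 (SE), at a Benjamini-Hochberg adjusted p of 0.744 (edgeR quasi-likelihood). The counts per gene do not separate the transcript without exon 3 from the full one. Amer1, a partner of APC and Axin at the membrane, had a log2 fold change of -1.14 and was lower in every castrated mouse than in both intact mice, as were 5 of these 14 genes in all, beside 16.1% of all tested genes.

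Of the TCF factors, co-activators and co-repressors, 14 of 15 genes were in the table and tested, 7 in each direction, with a median log2 fold change of 0.05, and 0 passed the test by adjusted p. The Groucho co-repressors marked the extremes, with log2 fold changes of 0.70 for Tle4 and -1.06 for Tle2, while Tle3 had the highest mean TPM level, 55.9. Of 17 other genes known as β-catenin targets in some tissue, 15 were tested, 6 with a positive and 9 with a negative log2 fold change, with a median of -0.14, and 0 passed the test by adjusted p. The groups overlapped for all 15, and did not overlap for 33.1% of all tested genes. Mmp7, a matrix metalloproteinase, had the highest mean TPM level of this list, 2248, and the most negative log2 fold change, -2.24. It was highest in intact replicate 2, with a CPM of 4509 beside 235 in intact replicate 1 and 226, 519 and 759 in the 3 castrated mice (replicates 1, 2 and 3). In the fit that left out intact replicate 2, Mmp7 stood at 1.05 on the log2 scale. Ascl2 had the most positive log2 fold change, 0.69, at CPM levels of at most 1.15. Wif1, a secreted Wnt inhibitor, and Ccnd1, cyclin D1, were picked out after their values were seen. Their levels in castrated replicate 1 were 4.25 and 4.96 times the mean of the other castrated mice. This ratio was above 2 in 5 of the 15 genes, beside 6.69% of tested genes. Castrated replicate 1 was the highest and replicate 3 the lowest castrated mouse in 4 of the 15, beside 19.4% of tested genes. For Mmp7 the ratio was 0.353.

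**Figure D4:**
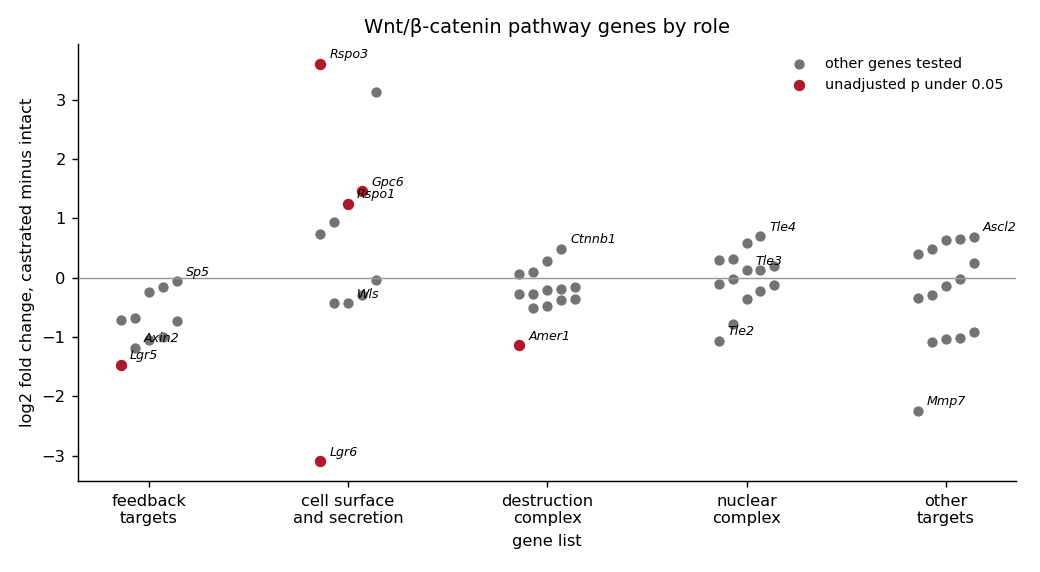
Log2 fold change (castrated minus intact) of every tested gene in 5 lists of the Wnt/β-catenin pathway, with 1 point per gene and red points for an unadjusted p under 0.05. The 10 feedback targets all lie below 0 under TMM scaling (Lef1 and Sp5 above 0 under epithelial scaling), and the other 4 lists spread to both sides, from -3.10 for Lgr6 to 3.60 for Rspo3.

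Marker genes of other cell types differed between the mice along with the feedback targets. In bulk tissue, fewer cells of a type and less RNA per cell cannot be told apart. The summed CPM of the 10 feedback targets was 3611, 1376 and 866 in castrated replicates 1, 2 and 3, compared with 3315 and 2793 in intact replicates 1 and 2. The summed CPM of 7 adipocyte genes was 40.0, 589 and 539 in castrated replicates 1, 2 and 3, compared with 26.1 and 52.4 in intact replicates 1 and 2, so the 2 mice with the lowest feedback targets had the highest adipocyte genes. Fabp4 was the most abundant of these, and 5 of the 7, Lep among them, were at 0 in at least 1 mouse. The 5 B cell genes, led by Cd79a, summed to a CPM of 9.84, 62.3 and 76.5 in castrated replicates 1, 2 and 3, and to 1.07 and 3.95 in intact replicates 1 and 2, with 1 gene at 0 in some mouse. The 11 T cell genes in the table, led by Cd3g, summed to 22.2, 75.2 and 73.9, and to 14.5 and 46.6. In all 3 sums castrated replicates 2 and 3 were the highest of the mice. Gene by gene, every castrated mouse was above both intact mice for 5 of 7 adipocyte, 5 of 5 B cell and 1 of 11 T cell genes, beside 17% of tested genes. The T cell genes Cd3d, Cd8a and Cd8b1 were highest in intact replicate 2. The part of these cells in the lower feedback targets was not tested.

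Summed macrophage, smooth muscle and fibroblast genes were higher in castrated mice. The 8 macrophage genes, led by C1qa, had a summed CPM of 1025, 2611 and 1325 in castrated replicates 1, 2 and 3, compared with 542 and 593 in intact replicates 1 and 2. The 6 smooth muscle genes, led by Tagln, summed to 374, 670 and 605, and to 198 and 138. The 8 fibroblast genes, led by Dcn, summed to 4574, 5582 and 7372, and to 4253 and 2539. In these 3 lists every castrated mouse was above both intact mice, castrated replicate 1 was the lowest of the castrated mice, and no gene was at 0 in any mouse. Gene by gene, every castrated mouse was above both intact mice for 8 of 8 macrophage, 6 of 6 smooth muscle and 4 of 8 fibroblast genes, beside 17% of all tested genes, and the collagen genes Col1a1, Col1a2 and Col3a1, named after their values were seen, overlapped, with log2 fold changes of -0.36, 0.01 and 0.09. The 6 genes of dividing cells, led by Pcna, were lower in every castrated mouse, at a summed CPM of 132, 184 and 190, than in the intact mice, at 352 and 406. Among the castrated mice they were lowest in replicate 1, where the feedback targets were highest. The summed CPM of the 6 endothelial genes, led by Cdh5, overlapped between the groups, at 395, 286 and 330 and at 433 and 179, although 3 of the 6 genes were higher in every castrated mouse than in both intact mice. The part of these cells in the result was not tested.

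Epithelial genes serve here as a reference for the feedback targets, since Cre is made in the epithelium. Bulk data do not show which cells expressed these targets. The 8 epithelial genes, led by Krt18, had a summed CPM of 4235, 3900 and 4583 in castrated replicates 1, 2 and 3, compared with 6386 and 3967 in intact replicates 1 and 2, with no gene at 0. The groups overlapped, and the part of the epithelial share in the result was not tested. The summed CPM of Epcam, Cdh1, Krt8 and Krt18 alone was 3058, 2867 and 3466 in castrated replicates 1, 2 and 3. In intact replicates 1 and 2 it was 4478 and 2642, so this reference itself varied between mice. Per 100 CPM of Epcam, Cdh1, Krt8 and Krt18 together, the Axin2 level was 11.2, 5.02 and 3.51 in castrated replicates 1, 2 and 3, compared with 7.44 and 22.2 in intact replicates 1 and 2. The Apcdd1 level on this scale was 50.4, 17.2 and 6.31 in castrated and 22.7 and 29.1 in intact mice. All 10 genes kept castrated replicate 1 highest and castrated replicate 3 lowest among the castrated mice on this scale. The separation of the groups for Lgr5 was lost, with 1.98 in castrated replicate 1 and 1.64 in intact replicate 1. Tcf7 in castrated replicate 2, at 1.57, was no longer below intact replicate 1, at 1.14. Scaling all libraries to these 4 epithelial genes in the fit moved the median log2 fold change of all tested genes from -0.03 to 0.08, and turned Lef1 to 0.24 and Sp5 to 0.24, both above that median.

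The prostate markers set intact replicate 2 apart. Tgm4, a secretory transglutaminase of the prostate and the most abundant marker of that list, had CPM levels of 0.419, 0.0536 and 0.0487 in castrated replicates 1, 2 and 3, compared with 0.224 and 1347 in intact replicates 1 and 2. Of the other defining secretory markers, Msmb was at 0 in all 5 mice, and Pbsn and Sbp were at 0 in at least 1 castrated mouse and in intact replicate 1. The secretory markers of the labelled tissue were thus at or near 0 in 4 of the 5 libraries, while epithelial genes were abundant in all. The summed CPM of the 9 prostate markers was 325, 382 and 461 in castrated replicates 1, 2 and 3, compared with 349 and 2704 in intact replicates 1 and 2. Intact replicate 2 was the mouse with the highest Axin2, Tcf7 and Lgr5 and the lowest Lef1. The 4 basal genes, led by Krt15, summed to 314, 342 and 852 in castrated and to 76.4 and 702 in intact mice. The 10 squamous genes, led by Sprr1a, summed to 137, 52.9 and 68.8 in castrated and to 75.7 and 237 in intact mice, with 3 of them at 0 in some mouse. Both sums overlapped between the groups. Krt15 itself, with a log2 fold change of 2.39, was higher in every castrated mouse than in both intact mice. That order was held by 1 of the 4 basal genes, beside 17% of tested genes. Krt5, Krt14 and Trp63 overlapped, with log2 fold changes of -0.35, -0.21 and -0.19. The part of these cells in the result was not tested.

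**Figure D5:**
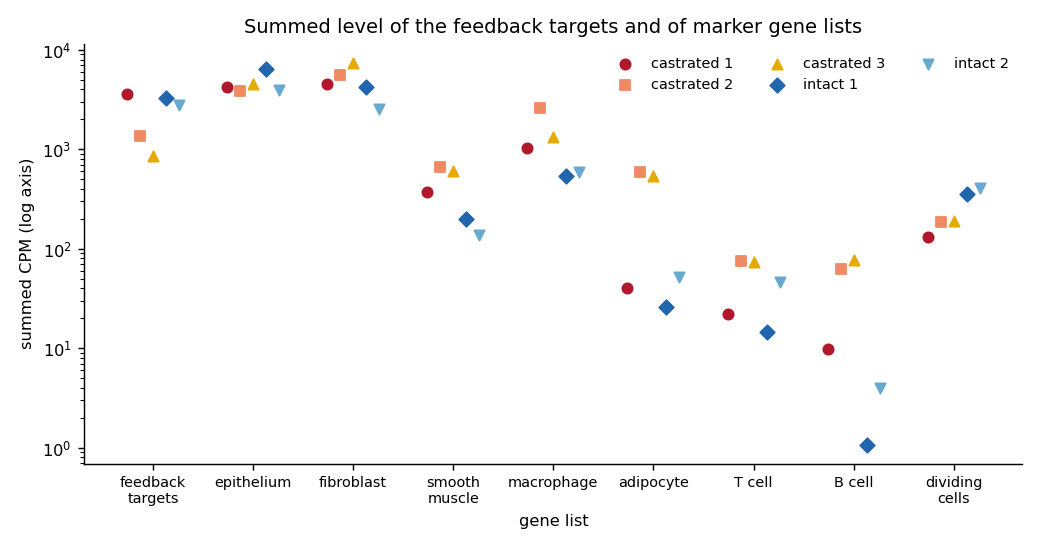
Summed CPM (log axis) of the 10 feedback targets and of 8 lists of marker genes in each mouse, with 1 point per mouse and list. Castrated replicates 2 and 3 lie lowest for the feedback targets and highest for adipocyte, T cell and B cell genes, and the epithelial sums of all 5 mice lie between 3900 and 6386.

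Leaving out 1 mouse showed which values rest on it. Without castrated replicate 1, all 10 log2 fold changes were more negative, from -1.79 for Lgr5 and for Axin2 to -0.84 for Sp5, and the lowest Benjamini-Hochberg adjusted p among them was 0.187, for Axin2 (edgeR quasi-likelihood), whose adjusted p reached 0.805 in other fits. Without intact replicate 1, Lef1 turned to 1.49 and Sp5 to 0.92, while Lgr5 stood at -1.91 and Tcf7 at -1.55. Axin2 (-1.51) and Znrf3 (-0.71) were also more negative in that fit. Notum (-0.49), Rnf43 (-0.49), Nkd1 (-0.20) and Apcdd1 (-0.01) were less negative than with all mice. Without intact replicate 2, Lgr5 was nearer to 0, at -0.82, as were Axin2 at -0.76 and Tcf7 at -0.08. Notum (-1.485), Nkd1 (-1.12), Rnf43 (-0.97), Lef1 (-0.95), Sp5 (-0.68) and Apcdd1 (-0.48) were more negative in that fit. Lgr5, Axin2, Notum, Tcf7, Rnf43, Nkd1 and Znrf3 kept a negative log2 fold change in every fit that left out 1 mouse.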

How the data were processed

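Bulk RNA-seq libraries of prostate tumors (3 castrated, 2 intact TripleTg mice) were grouped by their labels, with none left out. No pair of libraries in a group matched within sampling noise (chi-square per gene of 133 or more). Per the submitters' processing notes and the methods, the authors used Trimmomatic 0.39 for trimming, STAR 2.7.9 for alignment to mm10 and HTSeq 2.0.2 to count reads per gene. The deposited table holds these raw counts, not normalized, and a gene length used here only for TPM.

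The filter kept genes above 1 CPM in 2 or more samples. Castrated and intact mice were compared by the quasi-likelihood F-test of edgeR 4.0.16 (R 4.3.3, TMM), and p-values were adjusted by Benjamini-Hochberg over all genes tested. Counts were used although the methods name TPM. The common dispersion between mice was 0.238, so mouse-to-mouse spread limits precision more than depth. The procedure was tested on simulated data. The standard error (SE) of a log2 fold change is its size over the square root of F.

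The 10 genes, the other lists and the tests were chosen with earlier results of these data known. Beside the 10 genes, named genes were, per pathway list, those with an unadjusted p under 0.05, the largest log2 fold change in each direction and the highest mean TPM, and per marker list the gene with the highest mean TPM and markers at 0. One symbol of the co-factor list and 3 T cell genes did not match the table by symbol. Alternatives were DESeq2 1.42.0, the likelihood ratio test, no fold change threshold, 3 other scalings, other filters, TPM as input, a replicate block and leaving out each mouse. The older quasi-likelihood fit of edgeR was added after seeing the data. One marker gene is not reported here by itself. Promoter sequences are from RefSeq.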

Additional observations from a re-analysis of the deposited data

How the results depend on the processing

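No feedback target passed the threshold under any setting, and 140 alternative log2 fold changes of the 10 genes kept their sign while 10 did not. Genes called, 0 in the fit reported, were 989 with DESeq2, 369 with the likelihood ratio test and 0 to 1 when 1 mouse was left out, the 1 without intact replicate 1. A fit without an intact mouse leaves 1 intact sample, which is assumed to vary like the castrated mice. Feedback targets with a positive log2 fold change, 0 as reported, were 2 with epithelial scaling, 2 with the replicate block and 0 to 3 when 1 mouse was left out. Lef1 turned to 0.24 with epithelial scaling and to 0.51 with the replicate block, and ranged from -0.95 to 1.49 with 1 mouse left out. Sp5 turned to 0.24 and 0.32, and ranged from -0.84 to 0.92. Apcdd1 ranged from -1.32 to 0.20, and was positive without castrated replicate 3. Apart from what leaving out a mouse or rescaling does by construction, the cause was not tested.

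Replicate numbers are shared by different animals. Deviations from the group means correlated at 0.149 for number 1 and -0.045 for number 2 across genes. These values gave no sign that the numbers pair the mice, but they cannot exclude a pairing. With 2 intact mice the intact deviations mirror each other, so the correlations are not separate checks. The replicate block left 0 genes called and 975 at an unadjusted p under 0.05 with an absolute log2 fold change above 1, against 1596 without it (edgeR's quasi-likelihood test). With 2 intact mice, the intact spread of each gene rests on 1 difference. The counts of the 10 genes, from 199 to 44163 per mouse, leave little counting error.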
